A study of Mus musculus with 6 samples.

Results

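Mitochondrial ribosomal proteins are the protein subunits of the mitoribosome, the ribosome inside mitochondria. The array carried 74 of their genes out of 12393 genes with a single annotated symbol. They were chosen by name alone, as Mrpl or Mrps followed by a number, and each gene was represented by its brightest probe set. By name, 47 belong to the large subunit and 27 to the small subunit. All 74 symbols matched the RefSeq gene table. The samples were liver total RNA of Swiss-Webster mice on 6 one-colour Affymetrix arrays. The control group had 2 arrays from mice on a control diet. The fraction 1 group had 2 arrays from mice given food with 1% of the hexane fraction of Boswellia serrata, the Indian frankincense tree, over 21 days. The fraction 2 group had 2 arrays from mice given the methanol fraction at 1% over 21 days. Age, sex, the feeding time of the controls and whether an array came from 1 animal or a pool were not given in the sources used here. The labels do not call the arrays of a group separate animals, so every p-value below measures only the spread between these arrays, which may be technical.

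The mitoribosome makes the few oxidative phosphorylation subunits that mitochondrial DNA encodes. Its RNA comes from the mitochondrion, but every one of its proteins is encoded in the nucleus, made in the cytosol and imported. The large subunit joins amino acids and passes the new chain out through the exit tunnel at the inner membrane, and the small subunit reads the messenger RNA. Liver cells are rich in mitochondria. Many of the proteins descend from bacterial ribosomal proteins, and others are found in mitochondria only. Of the 74 genes, 46 were classed as having a bacterial counterpart and 27 as particular to mitochondria. Mrps36 was left out of both classes, since its product is now counted as a part of the oxoglutarate dehydrogenase complex. The products of Mrps18a and Mrps30 keep a small-subunit name but sit in the large subunit of the mammalian particle.

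Every one of the 74 genes was clearly detected in liver. Their lowest signal on any array was 268.4 (Mrpl45 on fraction 1 array a) and their highest 5075.1 (Mrpl27 on control array 2), in linear array units. The level used to filter dim probe sets was at most 116.3 on any array, and all 74 genes lay above the median level of the 14755 probe sets tested. Mean signals over the 6 arrays ran from 342.3 to 4189.9 for large-subunit genes and from 354.9 to 2669.5 for small-subunit genes. These levels are not ranked, because a probe set's brightness also depends on its probes. The genes varied little between arrays. The SD of log2(signal + 16) over the 6 arrays had a median of 0.190 for the 74 genes, from 0.045 for Mrpl16, a protein beside the peptidyl transferase centre, to 0.547 for Mrpl52. The median SD was 0.276 for all tested probe sets, and 0.229 for the 1809 whose mean level lay between the quartiles of the 74 genes.

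The arrays were scaled alike before deposit, with trimmed means of 498.3 to 498.6. The 3'/5' signal ratio of actin, a sign of RNA quality, was 3.874 on control array 2 and 2.133 to 2.641 on the others. That of GAPDH was 1.736 on control array 2 and 1.068 to 1.378 on the others. The experiment files give 2 scan days. Control array 1 and fraction 2 array a were scanned on day 2 and share 1 chip lot, so scan day and lot cannot be told apart there. The other 4 arrays, both of fraction 1 among them, were scanned on day 1. Control array 2 is the only control array of day 1, so every difference from control within day 1 rests on it. The 7 hepatocyte markers were bright in all groups, at a summed signal of 124286.7 to 140711.0 in control, 109180.2 to 122551.1 in fraction 1 and 98473.8 to 104788.7 in fraction 2. None of the 7 was called in a comparison. Their median log2 difference from control was -0.24 in fraction 1 and -0.36 in fraction 2. Kupffer cell or macrophage markers (7 tested) had medians of -0.19 and -0.17, with none called. Endothelial markers (6 tested) had a median log2 difference of -0.43 and stellate or fibroblast markers (5 tested) of -0.48 between fraction 1 and control, with none called. Alas2, the erythroid enzyme of haem synthesis and the only erythroid marker tested, was called lower there (log2 fold change -1.66, limma). The part of these shifts in the results below was not tested, and in whole tissue fewer cells of a type cannot be told apart from less RNA per cell.

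No mitochondrial ribosomal protein gene was called in either fraction against control. With fraction 1, limma with Benjamini-Hochberg adjustment over all 14755 probe sets called 0 of 47 large-subunit and 0 of 27 small-subunit genes at 0.05, where it called 105 probe sets in all, 0.712% of those tested. At an unadjusted p under 0.05 stood 7 genes higher in fraction 1 (Mrpl52, Mrpl32, Mrpl54, Mrpl43, Mrpl10, Mrps18b and Mrps34) and 1 lower (Mrpl48). These 8 are 10.8% of the 74 genes, against 12.4% of all tested probe sets. By direction, 9.46% of the genes were higher, against 5.92% of all tested probe sets, and 1.35% were lower, against 6.48%. The median log2 fold change was 0.033 for the large subunit and 0.096 for the small subunit, beside -0.023 for all tested probe sets. Most genes stood close to control. The difference was under 0.5 on the log2 scale in either direction for 68 of 74 genes (91.9%), against 80.9% of all tested probe sets. Here and in the comparisons below, these shares are not matched for level. All 74 genes lay above the median level, and their median SE was 0.198, against 0.252 for all tested probe sets.

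**Figure D1:**
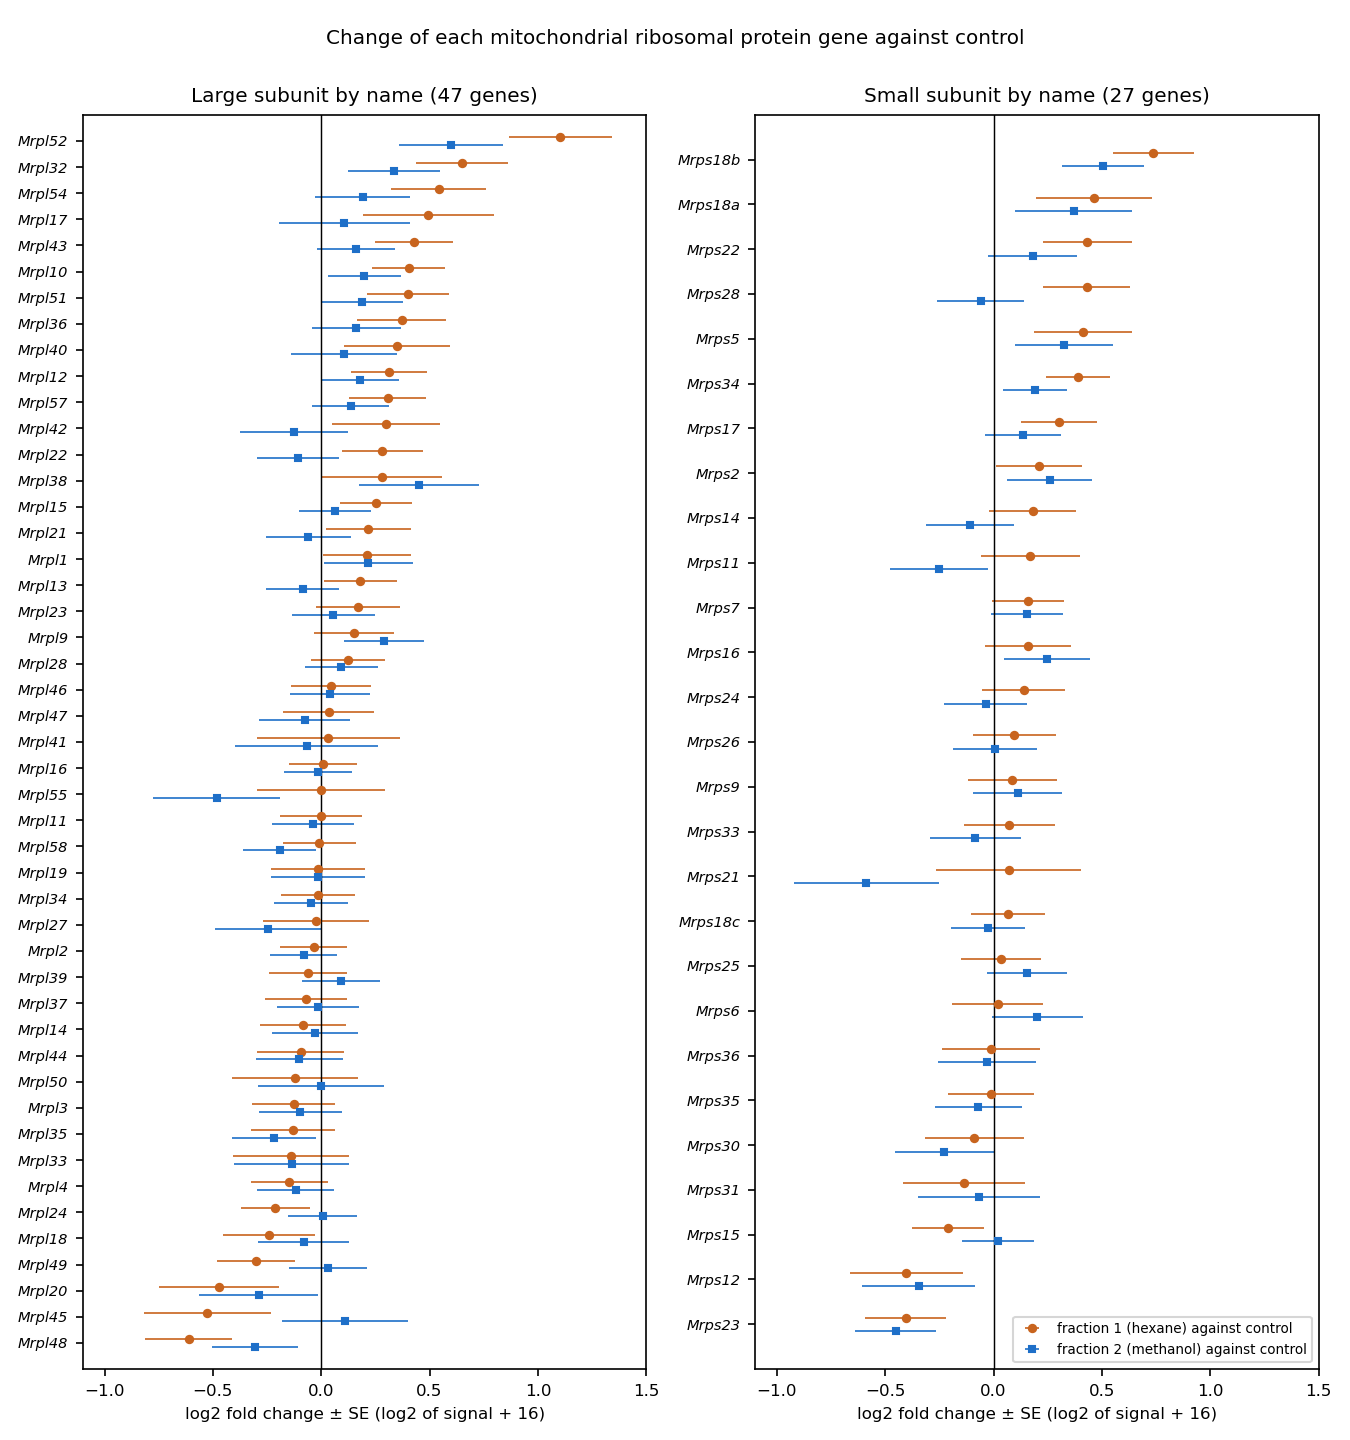
Each row is 1 gene; the horizontal axis is the log2 fold change against control on the log2(signal + 16) scale, with fraction 1 as circles and fraction 2 as squares, and bars of 1 SE from limma (2 arrays per group). Most points lie within 0.5 of 0, with Mrpl52 and Mrps18b at the upper end of their subunits in both fractions and Mrpl48 at the lower end in fraction 1.

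Mrpl52, which codes for a large-subunit protein found only in mitochondria, had the largest difference. Its signal was 1331.1 and 959.4 on the control arrays, 2674.0 and 2241.3 on the fraction 1 arrays and 1435.2 and 2057.6 on the fraction 2 arrays. Both fraction 1 arrays lay above both control arrays and both fraction 2 arrays. The log2 fold change of fraction 1 against control was 1.10 ± 0.24 (SE, n = 2 arrays per group), a fold of 2.15, with a limma adjusted p of 0.0959. The adjusted p ran from 0.058 to 0.554 over the alternatives tried. The gene has 2 other probe sets, and both were also higher in fraction 1, with log2 fold changes of 0.59 and 0.32. Within scan day 1, against control array 2 alone, the difference was 1.34. That array had the highest actin 3'/5' ratio and, for this gene, the lowest signal of all arrays.

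Mrps18b followed among the small-subunit genes. It is 1 of 3 mammalian paralogs of the bacterial small-subunit protein S18. Its signal was 702.8 and 788.8 in control, 1163.6 and 1347.2 in fraction 1, and 1142.0 and 990.6 in fraction 2. Neither fraction overlapped control. The log2 fold change with fraction 1 was 0.74 ± 0.19 (limma adjusted p = 0.145), and 0.66 within scan day 1. The other paralogs stood at 0.46 (Mrps18a) and 0.067 (Mrps18c), and Mrps18a dropped to 0.15 with scan day as a block.

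**Figure D2:**
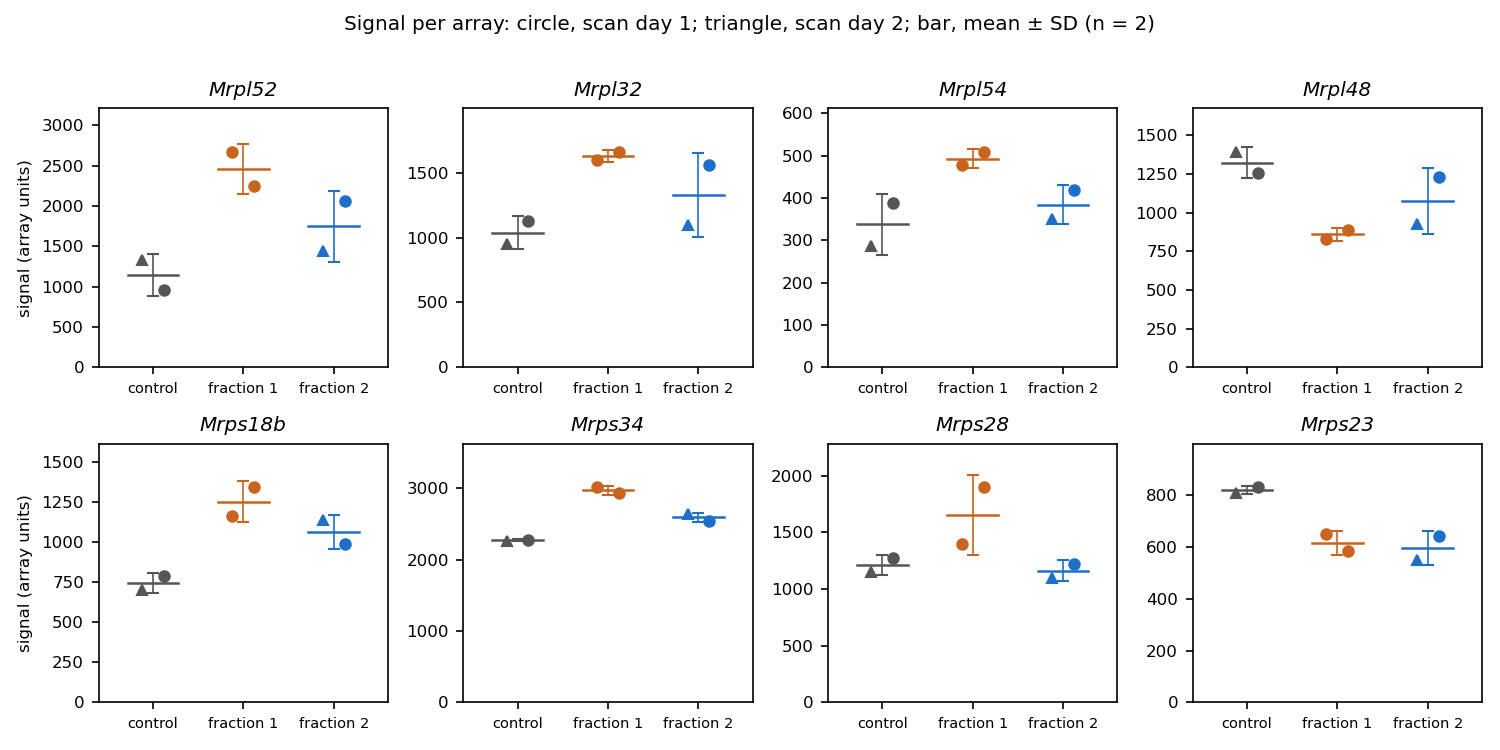
Linear signal (array units, axes from 0) of 8 genes on each array, by diet, with the mean and SD of 2 arrays; circles were scanned on day 1 and triangles on day 2. In Mrpl52, Mrpl32, Mrpl54, Mrps18b, Mrps34 and Mrps28 both fraction 1 arrays lie above both control arrays, and in Mrpl48 and Mrps23 both lie below.

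Of the other large-subunit genes, Mrpl32 and Mrpl54 were higher in fraction 1 and Mrpl48 was lower. Mrpl32 codes for a protein that the m-AAA protease cuts to its mature form before the large subunit can assemble. Its signal was 947.6 and 1127.9 in control, 1600.1 and 1665.1 in fraction 1, and 1099.4 and 1561.2 in fraction 2. The fraction 1 arrays stood above all others, and the fraction 2 array scanned on day 1 lay well above the one scanned on day 2. The log2 fold change was 0.65 ± 0.21 (limma adjusted p = 0.248), and 0.46 with scan day as a block. Mrpl54, another protein particular to mitochondria, had signals of 285.9 and 389.0 in control, 477.0 and 509.6 in fraction 1, and 351.1 and 417.8 in fraction 2. The fraction 2 arrays overlapped control and the fraction 1 arrays did not. Its log2 fold change was 0.54 ± 0.22 (limma adjusted p = 0.363), and within scan day 1 it was 0.33. Mrpl48 belongs to the central protuberance, the ridge that faces the small subunit. Its signal was 1394.5 and 1253.2 in control against 831.0 and 888.3 in fraction 1, and 925.6 and 1228.6 in fraction 2. Its fraction 1 arrays lay below every other array. The log2 fold change was -0.61 ± 0.20 (limma adjusted p = 0.245), while the gene's dimmer probe set stood at -0.049.

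Of the other small-subunit genes, Mrps34, needed for a stable small subunit, had closely matched arrays within each diet. Its signal was 2260.7 and 2281.4 in control, 3021.7 and 2930.5 in fraction 1, and 2639.3 and 2547.9 in fraction 2. The 3 groups did not overlap, with fraction 2 between the others. The log2 fold change with fraction 1 was 0.39 ± 0.15 (limma adjusted p = 0.327). Mrps28 stood at 1148.2 and 1271.3 in control, 1401.6 and 1901.3 in fraction 1, and 1095.5 and 1225.3 in fraction 2. The 2 fraction 1 arrays were the highest but lay far apart. Its log2 fold change was 0.43 ± 0.20 (limma adjusted p = 0.440). Mrps23 was lower, at 811.2 and 833.0 in control, 650.6 and 584.5 in fraction 1, and 551.7 and 644.8 in fraction 2. Both fractions lay below control and overlapped each other. The log2 fold change with fraction 1 was -0.41 ± 0.19 (limma adjusted p = 0.437), and -0.055 in its dimmer probe set.

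By place in the particle, the 3 stalk genes code for proteins that recruit the translation factors that use GTP. These genes stood at 0.40 (Mrpl10), 0.31 (Mrpl12) and -0.002 (Mrpl11) in fraction 1 against control. The dimmer probe sets of Mrpl11 were lower, at -0.37 and -0.25. The 4 genes around the peptidyl transferase centre, Mrpl2, Mrpl3, Mrpl16 and Mrpl27, lay between -0.13 and 0.010. The 7 exit tunnel genes ranged from -0.53 for Mrpl45, which ties the ribosome to the inner membrane, to 0.49 for Mrpl17. The 6 central protuberance genes ranged from -0.61 to 0.35 (Mrpl40), with Mrpl58, a release factor built into the ribosome, at -0.009. The 6 genes of the decoding site and messenger RNA path ran from -0.40 (Mrps12) to 0.41 (Mrps5). No group held a called gene. The median was 0.13 for the 46 genes with a bacterial counterpart and 0.033 for the 27 particular to mitochondria, and with scan day as a block these became 0.021 and 0.068.

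The arrays of fraction 1 and control did not overlap, with fraction 1 higher, for 25 of 74 genes (33.8%), against 18.8% of all tested probe sets. They did not overlap, with fraction 1 lower, for 8 of 74 genes (10.8%), against 22.1%. Without control array 2, the medians became 0.19 for the large and 0.18 for the small subunit. That leaves control array 1, scanned on day 2, against fraction 1 arrays scanned on day 1. Diet and scan day cannot be told apart there. Without fraction 1 array a, the small-subunit median was 0.18. Within scan day 1, against control array 2 alone, the medians were 0.008 and 0.082.

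In fraction 2 against control, again no gene was called. The comparison uses the same control arrays as fraction 1 does. Limma called 16 probe sets in all, 0.108% of those tested, and 0 of the 74 genes. An unadjusted p under 0.05 was reached by 3 genes (4.05%, against 6.95% of all tested probe sets): Mrpl52 and Mrps18b were higher and Mrps23 lower. The medians were -0.013 for the large and 0.007 for the small subunit, beside -0.041 for all tested probe sets. Without control array 2, and so against control array 1 of scan day 2 alone, the large-subunit median was 0.110. With arrays centred on their medians the 2 medians were 0.102 and 0.123. The arrays did not overlap in 13 genes with fraction 2 higher (17.6%, against 14.8%) and in 3 with fraction 2 lower (4.05%, against 20.4%). Differences under 0.5 in size were seen in 71 of 74 genes (95.9%, against 85.7%).

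For Mrpl52 the fraction 2 difference was 0.60 ± 0.24 (SE, limma adjusted p = 0.677). It was 1.09 between the arrays of scan day 1, where control array 2 was the lowest of all arrays, and 0.11 between those of day 2. For Mrps18b it was 0.51 ± 0.19 (limma adjusted p = 0.662), at 0.32 on day 1 and 0.69 on day 2. For Mrps23 it was -0.45 ± 0.19 (limma adjusted p = 0.698), with -0.36 and -0.54 on the 2 days, while its dimmer probe set stood at 0.67. The sign for Mrps23 thus depends on the probe set. The lowest large-subunit value was that of Mrpl55, at -0.48, and the lowest small-subunit value that of Mrps21, at -0.59. Mrpl55 signals were 613.7 and 1165.8 in control against 652.2 and 554.0 in fraction 2, so control array 2 alone stood apart. Mrps21 signals were 1428.1 and 2749.3 in control against 1026.7 and 1679.5, and the groups overlapped. Mrpl38 of the central protuberance stood at 0.45, Mrpl32 at 0.34 and Mrps5 at 0.32. For Mrpl38, control array 2 was the lowest of the 6 arrays at 517.0, against 845.0 to 1037.1 on the others.

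Between the fractions, no gene was called either. Limma called 2 probe sets in all, 0.0136% of those tested, and 0 of the 74 genes. Mrps28 alone reached an unadjusted p under 0.05 (1.35% of 74 genes, against 8.04% of all tested probe sets), with a log2 difference of 0.49 ± 0.20 of fraction 1 over fraction 2 (SE, limma adjusted p = 0.601). The medians were 0.047 for the large and 0.088 for the small subunit, beside 0.018 for all tested probe sets, and the large-subunit median was -0.038 when arrays were centred on their medians. With scan day as a block they were 0.002 and 0.020. Fraction 1 was higher without overlap for 21 genes (28.4%, against 25.4%) and lower for 9 (12.2%, against 21.4%). The difference was under 0.5 in size for 71 of 74 genes (95.9%, against 83.7%).

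Mrps21 had the highest value between the fractions, at 0.66 ± 0.34 (SE, limma adjusted p = 0.647), and 0.25 with scan day as a block. Mrpl45 had the lowest, at -0.64 ± 0.29 (limma adjusted p = 0.628), and -0.35 with the block. Its signals were 268.4 and 327.0 in fraction 1 against 520.4 and 422.8 in fraction 2, and 585.8 and 319.9 in control. The fractions did not overlap, but the 2 control arrays spanned nearly the whole range. Mrpl52 stood at 0.51, Mrpl22 of the exit tunnel at 0.39 and Mrpl49 at -0.33. Mrps11 stood at 0.42, or 0.21 with the block, and Mrps14 at 0.29. Mrps15 had the lowest small-subunit value, at -0.23. The dimmer probe sets of Mrps14 and Mrps15 had the opposite sign, at -0.22 and 0.26.

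The arrays were also compared by scan day. In a limma fit with diet and scan day, the median difference of day 2 minus day 1 was -0.17 for the large subunit, -0.067 for the small subunit and -0.050 for all tested probe sets. When arrays were centred on their medians, these subunit medians became -0.045 and 0.056. At an unadjusted p under 0.05, 15 genes were lower on day 2 (20.3%, against 7.76% of all tested probe sets) and 4 were higher (5.41%, against 7.71%). After adjustment 0 were called, as for all tested probe sets (0%). Of the 46 genes with a bacterial counterpart, 12 were lower (26.1%) and 0 higher, and of the 27 particular to mitochondria, 3 were lower (11.1%) and 4 higher (14.8%). The difference between these classes was not tested.

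Mrpl17, an exit tunnel protein, had the smallest p. Its signal was 2120.0 on control array 1 and 2607.5 on fraction 2 array a, both scanned on day 2. On day 1 it was 4085.6 on control array 2, 4174.5 and 4130.9 on the fraction 1 arrays, and 3855.7 on fraction 2 array b. The 4 arrays of day 1 were alike across all 3 diets, and both day 2 arrays lay far below them. The difference was -0.75 ± 0.14 (SE, limma adjusted p = 0.139). The value of 0.49 for this gene in fraction 1 against control was 0.023 within day 1. Mrps21 (-0.82), Mrps18a (-0.61), Mrps12 (-0.59) and Mrpl27 (-0.57) were also lower on day 2. Mrpl50 (0.64), Mrps31 (0.60), Mrpl45 (0.57) and Mrpl38 (0.53) were higher. Scan day was not balanced over the diets, since both fraction 1 arrays belong to day 1. Mrps12, whose protein lines the decoding centre, stood at -0.40 in fraction 1 against control without the block and at -0.70 with it (limma adjusted p = 0.109).

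**Figure D3:**
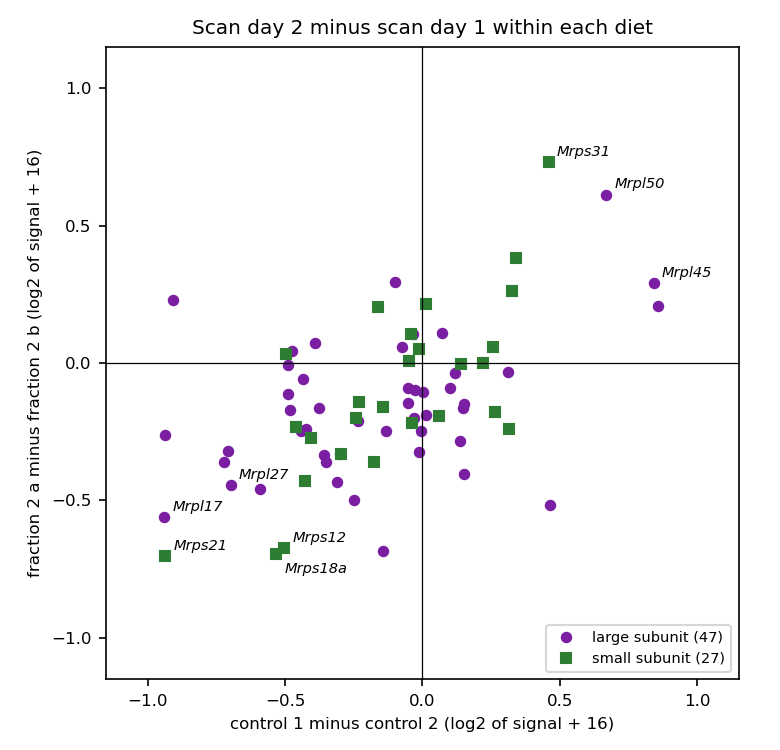
Each point is 1 of the 74 genes; the horizontal axis is control array 1 minus control array 2 and the vertical axis fraction 2 array a minus array b, both day 2 minus day 1 on the log2(signal + 16) scale. Mrpl17, Mrps21, Mrpl27, Mrps18a and Mrps12 lie low on both axes, and Mrps31, Mrpl50 and Mrpl45 lie high on both.

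Within the diets, control array 1 minus control array 2 had a median of -0.13 for the large and -0.049 for the small subunit. Fraction 2 array a minus array b had medians of -0.17 and -0.16. These pairs differ in chip lot as well as in scan day. As levels, the large-subunit median was -0.15 on control array 1 and -0.14 on fraction 2 array a, relative to each gene's mean over the 6 arrays, and 0.009 to 0.078 on the 4 arrays of day 1. The small-subunit median was -0.094 and -0.075 on day 2, and -0.042 to 0.12 on day 1, with control array 2 lowest. Cytosolic ribosomal proteins and oxidative phosphorylation subunits were also below 0 on both day 2 arrays. On fraction 2 array b they stood at -0.092 and -0.047, where the large and small mitochondrial subunits stood at 0.067 and 0.032.

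**Figure D4:**
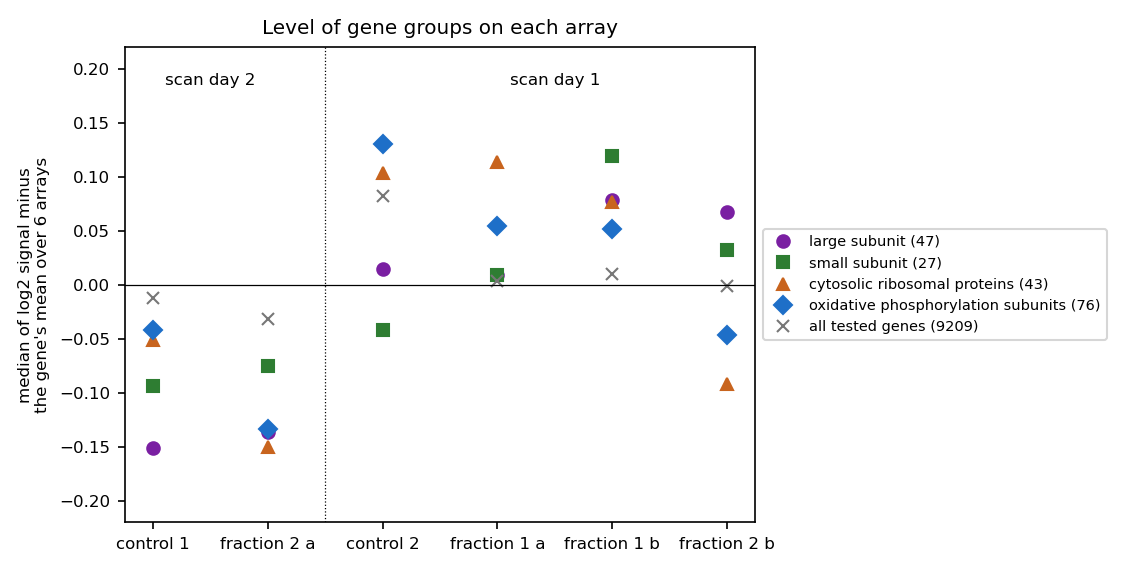
Vertical axis, median over each gene group of log2(signal + 16) minus the gene's mean over the 6 arrays; horizontal axis, the arrays ordered by scan day; gene numbers are in the key. The large subunit lies at -0.15 and -0.14 on the 2 arrays of scan day 2 and between 0.009 and 0.078 on the 4 arrays of day 1.

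Of the 74 genes, 28 had more than 1 tested probe set. In fraction 1 against control all probe sets of a gene had the same sign in 15 of these 28, in fraction 2 against control in 13 and between the fractions in 15. Opposite signs more than 0.5 apart were seen in 8 genes with fraction 1 (Mrpl1, Mrpl19, Mrpl21, Mrpl33, Mrpl34, Mrpl51, Mrps14 and Mrps15). With fraction 2 they were seen in 6 genes (Mrpl1, Mrpl17, Mrpl19, Mrpl34, Mrpl51 and Mrps23), and between the fractions in 4 (Mrpl33, Mrps9, Mrps14 and Mrps23). Mrpl34 was one of them in both fractions. Its bright probe set read 1157.9 and 1100.3 in control, 1098.3 and 1137.5 in fraction 1, and 1134.4 and 1051.3 in fraction 2, nearly level. Its dim probe set read 17.3 and 18.4 in control, 72.5 and 116.4 in fraction 1, and 125.1 and 116.4 in fraction 2. Both control arrays and fraction 1 array a lay under the filter level of their arrays there (93.5, 116.3 and 100.9), so no fold is given. The limma adjusted p was 0.210 in fraction 1 and 0.477 in fraction 2. The bright probe set stood at -0.014 and -0.047. Of the other genes named for fraction 1 against control, the dimmer probe sets of Mrpl33, Mrps15 and Mrpl19 stood at 0.756, 0.732 and 0.635. Those of Mrpl21, Mrps14, Mrpl1 and Mrpl51 stood at -0.498, -0.486, -0.319 and -0.259. The size and sign for these genes thus depend on the probe set.

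Other genes of mitochondrial translation gave no call either, in any comparison. The list of mitoribosomal proteins named otherwise, which may not be complete, held 4 genes: Dap3, Ptcd3, Chchd1 and Gadd45gip1. In fraction 1 against control, Dap3 and Ptcd3 stood at -0.009 and 0.016, Chchd1 at 0.44, and Gadd45gip1, a large-subunit protein, at 0.50 ± 0.20 (SE, limma adjusted p = 0.368). Gadd45gip1 signals were 426.9 and 390.0 in control, 519.4 and 652.9 in fraction 1, and 528.5 and 602.8 in fraction 2, so both fractions lay above control. The 6 translation factors had a median of -0.037. Tufm, which brings the transfer RNA to the ribosome, stood at -0.090 and Gfm1, the elongation factor of translocation, at 0.40. The 16 assembly and rRNA modification factors had a median of 0.044, with Fastkd2 at 0.50, and the 8 mitochondrial aminoacyl-tRNA synthetases one of 0.036. In the list of 11 transcription and mtDNA maintenance genes, with a median of 0.009, the DNA polymerase gene Polg stood at -0.45, Polrmt, the mitochondrial RNA polymerase, at 0.40 and Tfam, which packs mitochondrial DNA, at -0.065.

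Among the 12 regulators, 3 reached an unadjusted p under 0.05 in fraction 1 against control, all higher: Atf4, Atf5 and Ppargc1a. That is 25% of this list, against 12.4% of all tested probe sets in either direction and 5.92% higher. Ppargc1a codes for a coactivator of mitochondrial biogenesis. Its signal was 212.9 and 183.7 in control, 363.5 and 298.9 in fraction 1, and 249.5 and 158.1 in fraction 2, and the fraction 1 arrays lay above all others. Its log2 fold change was 0.69 ± 0.26 (SE, limma adjusted p = 0.326) in fraction 1 and 0.008 in fraction 2. Atf5, a factor of the mitochondrial stress response, read 2866.2 and 1961.3 in control, 3287.1 and 4174.8 in fraction 1, and 2607.0 and 2615.4 in fraction 2. Its fraction 1 arrays were the highest too, with a log2 fold change of 0.64 ± 0.21 (limma adjusted p = 0.255). The related factor Atf4 stood at 0.42. Factors that bind promoters of mitochondrial genes differed in sign. Nrf1 stood at -0.31 in fraction 1 and -0.43 in fraction 2, Yy1 at -0.30 and -0.50, Gabpa at -0.19 and 0.091, and Esrra at 0.10 and -0.22. Creb1 read 63.8 and 86.6 in control, both under the filter level of their arrays, and 129.9 and 122.1 in fraction 1. Myc read 182.2 and 31.1 in control and 37.0 and 92.1 in fraction 1, where 3 of these 4 arrays lay under their filter level, so no fold is given for either gene. In fraction 2 against control, Tfb2m, a mitochondrial transcription factor, stood at -0.57 ± 0.25 (limma adjusted p = 0.719), Gadd45gip1 at 0.45, Dhx30 at 0.36 and Tars2 at -0.35. Between the fractions, Ppargc1a stood at 0.69, Tfb2m at 0.64, Atf5 at 0.50 and Hars2 at -0.44.

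The cytosolic ribosome and the respiratory chain are the neighbours of this machinery. The 43 tested cytosolic ribosomal protein genes had medians of 0.063 in fraction 1 against control, -0.10 in fraction 2 against control and 0.23 between the fractions, where 39 of 43 stood above 0. The 76 tested oxidative phosphorylation genes had medians of -0.007, -0.15 and 0.15, and 63 of 76 stood above 0 between the fractions. The medians between the fractions dropped to 0.17 and 0.070 with scan day as a block. None of these genes was called. The mitochondrial ribosomal proteins stood at 0.087 over all 74 between the fractions, with 50 of 74 above 0, and at 0.015 with the block. The shares above 0 of these lists, in the order given, were 90.7%, 82.9% and 67.6%, against 52.3% of all tested probe sets. They are for arrays as scaled before deposit. Centring arrays on their medians moved the median over all tested probe sets from 0.018 to -0.067 in this comparison. No test of the difference between these lists was made.

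The promoters of these genes are shown for Mrpl52 and Mrpl32, the 2 large-subunit genes with the highest differences in fraction 1 against control, and for Mrpl17, which led the scan day difference. RefSeq start sites (build GRCm38.p6) were found for 65 of the 74 genes. The bases just before the start are given 5' to 3' on the gene's strand, with matches in capitals to 4 motifs searched on both strands: GCGCATGC (the core bound by NRF1), CCGGAAG (ETS factors such as GABPA), AAGATGGC (YY1) and CACGTG (the E-box). The windows are chr14:54426659-54426908 (plus strand), chr13:14613038-14613241 (minus strand, as far as the start of the neighbour Psma2) and chr7:105811088-105811337 (minus strand).
Mrpl52: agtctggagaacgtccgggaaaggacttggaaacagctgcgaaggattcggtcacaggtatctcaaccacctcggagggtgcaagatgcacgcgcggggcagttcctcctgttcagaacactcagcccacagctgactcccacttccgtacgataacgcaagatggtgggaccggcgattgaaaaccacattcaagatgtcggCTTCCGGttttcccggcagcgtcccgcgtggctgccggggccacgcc
Mrpl32: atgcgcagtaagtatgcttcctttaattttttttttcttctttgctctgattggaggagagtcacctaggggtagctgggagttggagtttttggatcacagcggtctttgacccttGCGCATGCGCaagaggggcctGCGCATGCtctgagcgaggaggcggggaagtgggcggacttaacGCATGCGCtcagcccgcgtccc
Mrpl17: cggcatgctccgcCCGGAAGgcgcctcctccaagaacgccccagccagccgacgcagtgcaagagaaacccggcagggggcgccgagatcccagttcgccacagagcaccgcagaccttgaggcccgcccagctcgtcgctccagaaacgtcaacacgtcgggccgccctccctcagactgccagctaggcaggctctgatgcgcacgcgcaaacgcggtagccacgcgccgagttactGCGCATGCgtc
The capitals mark an ETS match in Mrpl52, NRF1 matches at 3 places in Mrpl32, and both kinds in Mrpl17. Mrpl32 also holds a YY1 match, which lies before the bases shown. In Mrpl32 the first place matches on both strands, since that stretch is its own reverse complement.

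In the 250 bases before the start, 8 of 65 genes (12.3%) held the NRF1 motif, against 2.56% of all 27025 genes with a window. The ETS motif was found in 16 genes (24.6%, against 7.83%), the YY1 motif in 4 (6.15%, against 1.83%) and the E-box in 5 (7.69%, against 6.86%). All 250 bases were searched, also past the start of an opposite-strand neighbour. The ETS matches of Mrps26, Mrpl27 and Mrpl18 reach past such a start. So do the YY1 matches of Mrps11, Mrps12 and Mrpl32 and the E-box matches of Mrpl37 and Mrps18c. Among the genes with the YY1 motif, only Mrpl36 holds a match that does not. The shares include matches of this kind, which were not counted apart. The median GC content was 58% against 52.4%, and the median number of CpG dinucleotides 16 against 6. The motif shares are not matched for these or for expression in liver. A gene of the opposite strand started within 1000 bases upstream of 24 of the 65 genes (36.9%), against 12.3% of all genes. Mrpl46 and Mrps11 are such a pair, with 42 bases between their starts. Mrpl46 stood at 0.045 and Mrps11 at 0.17 in fraction 1 against control, and at 0.041 and -0.25 in fraction 2. Mrpl32 and the proteasome gene Psma2, with starts 205 bases apart, stood at 0.65 and 0.30 in fraction 1 and at 0.34 and -0.004 in fraction 2. Mrps12 starts 147 bases from Sars2, the mitochondrial seryl-tRNA synthetase gene, and these stood at -0.40 and 0.23 in fraction 1. A tested neighbour was available in 13 cases, which count the Mrpl46 and Mrps11 pair from both sides. Limma called 0 of these neighbours in any of the 3 comparisons. It called 0.712%, 0.108% and 0.0136% of all tested probe sets in fraction 1 and fraction 2 against control and between the fractions.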

How the data were processed

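Liver RNA was measured on 6 Affymetrix arrays, 2 for each of 3 diets, grouped by the sample titles. The deposited table gives a linear signal intensity per probe set, made by the authors; the summary method and software were not given in the sources used here. The experiment files were used only for scan day and chip lot. Of 22690 probe sets, 64 controls were left out. Genes were named from the platform annotation, and the member of highest mean stood for its gene. Values were taken as log2(signal + 16), which understates changes of dim probe sets. Probe sets with at least 2 of 6 arrays at or above the array's 40th percentile (14755) were fitted in limma 3.58.1 (R 4.3.3; lmFit, contrasts.fit, eBayes with trend; 3 residual and 5.43 prior degrees of freedom), two-sided, with Benjamini-Hochberg adjustment and a threshold of 0.05. The fit was tested on simulated data with independent noise and no effect of scan day or chip lot. That test does not cover such effects in these arrays. All adjusted p-values are from limma. Per comparison and subunit, the genes named are the up to 4 with the smallest p, the highest and lowest change, genes whose probe sets differ in sign by more than 0.5, and 1 or 2 of each related list, beside Tfam, Polrmt, Tufm, Dap3, Ptcd3, Nrf1, Gabpa, Ppargc1a and Myc; Mrpl43, Mrpl10, Esrra, Creb1, the genes of each role and those of the scan day comparison were named after their values were seen. The members and lists were chosen with earlier results of these data known. With 2 arrays per group precision is limited: a log2 fold change had a median SE of 0.198 for the 74 genes and 0.252 for all tested probe sets. Promoter windows come from RefSeq and were matched by gene ID. Alternatives changed scaling, pseudocount, filter, variance trend, blocks, samples and probe set.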

Additional observations from a re-analysis of the deposited data

How the results depend on the processing

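No setting gave a called gene: limma called 0 of the 74 genes in each of 3 comparisons under every alternative run (110 subunit counts), and the lowest adjusted p was 0.058, for Mrpl52 in fraction 1 against control without control array 1. Medians moved by more than the spread between replicates (0.111 large, 0.066 small) in few settings. Centring arrays on their medians moved the median over all tested probe sets from -0.041 to 0.074 in fraction 2 against control and from 0.018 to -0.067 between the fractions. With it the fraction 2 medians were 0.102 (large) and 0.123 (small), the small-subunit median between the fractions 0.004, and the scan day medians -0.045 and 0.056. With scan day as a block the small-subunit median between the fractions was 0.020, and in the fraction 2 arrays alone the small-subunit scan day median was -0.159. The scan day comparison and its alternatives were chosen after seeing the data. Leaving out 1 array at a time gave medians of 0.006 to 0.185 (large) and 0.066 to 0.183 (small) in fraction 1 against control, -0.053 to 0.110 and -0.003 to 0.102 in fraction 2 against control, and -0.005 to 0.156 and 0.039 to 0.158 between the fractions. Of the 444 alternative values of genes named for p or size of change, 10 came from the gene's dimmest tested probe set, and 3 of these 10 reversed the sign, as did no other alternative: Mrps23 in fraction 2 against control (0.665), and Mrps14 (-0.223) and Mrps15 (0.262) between the fractions; the cause was not tested. Genes named because their probe sets differ in sign, 8, 6 and 4 in the 3 comparisons, are not in this tally. The letters a and b were not taken to pair the fraction arrays: both b arrays share chip lot and scan day, but the a and b differences of the fractions correlated at 0.0301 over tested probe sets. With the letter as a replicate block the medians between the fractions stayed at 0.047 and 0.088, 75 probe sets were called in place of 2, and 0 of the 74 genes. Without the variance trend, 12, 2 and 0 probe sets were called in place of 105, 16 and 2. With 2 arrays per group and a median SE of 0.198, small shifts were not detectable.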
